A study of Mus musculus with 140 samples.

Results

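The let-7 and miR-98 family was followed through 140 small RNA libraries of mouse kidney. Its 9 members are the 5p strands mmu-let-7a-5p, mmu-let-7b-5p, mmu-let-7c-5p, mmu-let-7d-5p, mmu-let-7e-5p, mmu-let-7f-5p, mmu-let-7g-5p, mmu-let-7i-5p and mmu-miR-98-5p, and they were chosen by name from the 1474 miRNAs of the table. The libraries came from 28 wild-type male C57BL6/OlaHsd mice, for which the sources used here name no age. From each mouse there are 5 libraries. For 4 of them the vessel was cut out by laser microdissection (arterioles, post-capillary venules, glomeruli or peritubular capillaries), and the fifth is whole kidney without microdissection. The 7 groups of 4 mice were healthy mice at 0 h, mice with a sham operation at 4 h, 24 h or 72 h, and mice with cecal ligation and puncture (CLP) at 4 h, 24 h or 72 h. CLP lets gut bacteria into the abdomen and is a standard model of sepsis. A replicate is 1 mouse, and replicates are called biological in the labels.

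let-7 was found in worms as a switch of developmental timing, and it is kept almost letter for letter in mammals. Its members bind messenger RNAs through the seed, the bases near the 5′ end that pair with the target, and repress among others Hmga2, Ras genes and Lin28, whose protein in turn blocks the maturation of let-7 precursors. In adult tissues such as kidney the family belongs to the abundant miRNAs and is known as a brake on proliferation.

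The mature sequences are shown because all members share one seed and differ elsewhere by a few letters, which bears on how far their reads can be told apart. The lines give the RefSeq sequences (GRCm38.p6), 5′ to 3′, and the capitals mark the seed, bases 2 to 8.
mmu-let-7a-5p: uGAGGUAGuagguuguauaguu
mmu-let-7b-5p: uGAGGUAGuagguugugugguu
mmu-let-7c-5p: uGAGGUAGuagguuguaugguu
mmu-let-7d-5p: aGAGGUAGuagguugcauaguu
mmu-let-7e-5p: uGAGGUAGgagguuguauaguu
mmu-let-7f-5p: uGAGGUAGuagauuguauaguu
mmu-let-7g-5p: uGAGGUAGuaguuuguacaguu
mmu-let-7i-5p: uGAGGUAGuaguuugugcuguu
mmu-miR-98-5p: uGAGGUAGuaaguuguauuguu

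Every member is 22 bases long and has the seed GAGGUAG. Against let-7a, counting positions from 1 at the 5′ end, let-7c differs by A19G, let-7e by U9G and let-7f by G12A. let-7b differs from let-7c by G17A. let-7i is the farthest from let-7a, with the changes G12U, A17G, U18C and A19U. Of the 36 pairs of members, 4 differ by 1 base and 10 by 2 bases. The sources used here do not say how reads that fit several of these miRNAs were counted, so values of let-7a, let-7b, let-7c, let-7e and let-7f are uncertain to the extent that reads were shared among them.

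The genes lie at several places in the genome (GRCm38.p6, GENCODE M21). Mirlet7a-1 (chr13:48538179-48538272), Mirlet7f-1 (chr13:48537829-48537917) and Mirlet7d (chr13:48536012-48536114) form a cluster on the minus strand, in exons of the long noncoding RNA gene 6720427I07Rik. Mirlet7c-2 (chr15:85706603-85706697) and Mirlet7b (chr15:85707319-85707403) lie side by side on the plus strand in exons of Lncppara. Mirlet7f-2 (chrX:151912346-151912428) and Mir98 (chrX:151913214-151913321) share an intron of the coding gene Huwe1, whose product is a ubiquitin ligase. Mirlet7a-2 (chr9:41536716-41536811) lies next to Mir100, Mirlet7c-1 (chr16:77599657-77599750) next to Mir99a in an intron of Mir99ahg, and Mirlet7e (chr17:17830352-17830444) between Mir99b and Mir125a in an intron of Spaca6, all on the plus strand. Mirlet7g (chr9:106178840-106178927) lies on the plus strand in an intron of Wdr82, and Mirlet7i (chr10:122985640-122985724, minus strand) in an exon of the transcribed pseudogene D630033A02Rik. let-7a, let-7c and let-7f each have 2 genes, and a mature count does not say from which of them a read came.

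The libraries differed in depth. The total miRNA count per library was 1412288 to 7921184 in whole kidney, 77258 to 1352025 in glomeruli, 19307 to 569283 in arterioles, 15148 to 567040 in venules and 4215 to 49456 in peritubular capillaries. The healthy and 4 h libraries (60, with a dot in the column name) and the 24 h and 72 h libraries (80, without one) form separate sets, so CLP was compared with sham within a time, and values of the sets are put side by side with no test. The endothelial markers miR-126a-3p and miR-126a-5p were present in every compartment. In healthy mice their summed share of miRNA counts was lowest in peritubular capillaries, at 2.06% ± 0.105 (SD, n = 4). It was 3.41% ± 0.503 in arterioles, 5.46% ± 0.664 in glomeruli, 3.37% ± 0.461 in venules and 2.68% ± 0.169 in whole kidney. In sham mice at 24 h and 72 h it averaged 2.45% in both capillaries and venules, 3.47% in arterioles and 5.66% in glomeruli. The smooth muscle pair miR-143-3p and miR-145a-5p took 49.6% ± 4.26 (SD, n = 4) of the miRNA counts in healthy arterioles. In healthy peritubular capillaries this pair took 4.13% ± 0.812.

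let-7f and let-7i carried most of the family. Over all libraries mmu-let-7f-5p had 2476353 counts, mmu-let-7i-5p 2259050 and mmu-let-7c-5p 1390286, followed by let-7b with 674813, let-7g with 364975, let-7a with 246847, miR-98 with 150647, let-7e with 141446 and let-7d with 41575. let-7f was the most abundant member in 78 libraries and let-7i in the other 62. Together with let-7c they made up 68% to 96.7% of the family's counts in a library, with a median of 81.6%. let-7d was the rarest and had 0 counts in 16 libraries, let-7e in 4 and miR-98 in 1. All 9 members passed the filter on low counts in every comparison below. These are counts of reads, and ligation and amplification can favour one sequence over another.

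As a whole the family took 1.42% to 9.96% of the miRNA counts of a library. In healthy mice the share was lowest in arterioles, at 1.76% ± 0.230, and it was 3.48% ± 0.641 in glomeruli, 4.02% ± 1.18 in peritubular capillaries, 3.88% ± 0.775 in venules and 4.33% ± 0.911 in whole kidney (SD, n = 4 each). The arteriole libraries, at 1.54% to 2.06%, did not overlap with those of any other compartment in these mice. The other 4 compartments overlapped with each other. A share also depends on the other miRNAs of a library, such as the smooth muscle pair, which was high in arterioles. In CPM scaled by TMM over the 20 healthy libraries, arterioles overlapped with glomeruli and venules for let-7i and let-7f. let-7i averaged 10685.5 CPM in arterioles, 11515.6 in glomeruli and 9236.04 in venules, and let-7f 12533.5, 15310.9 and 12912.7. The part of the smooth muscle pair in the low share was not tested. In the 24 h and 72 h set the mean share was higher in every compartment. In arterioles it ran from 3.05% to 6.01% against 1.42% to 2.06% in the healthy and 4 h set, with no overlap, and in whole kidney from 4.61% to 7.96% against 2.51% to 5.26%, with overlap. In bulk libraries such as these, fewer cells of a type and less RNA per cell cannot be told apart. Time after surgery and library set cannot be told apart in that difference.

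**Figure D1:**
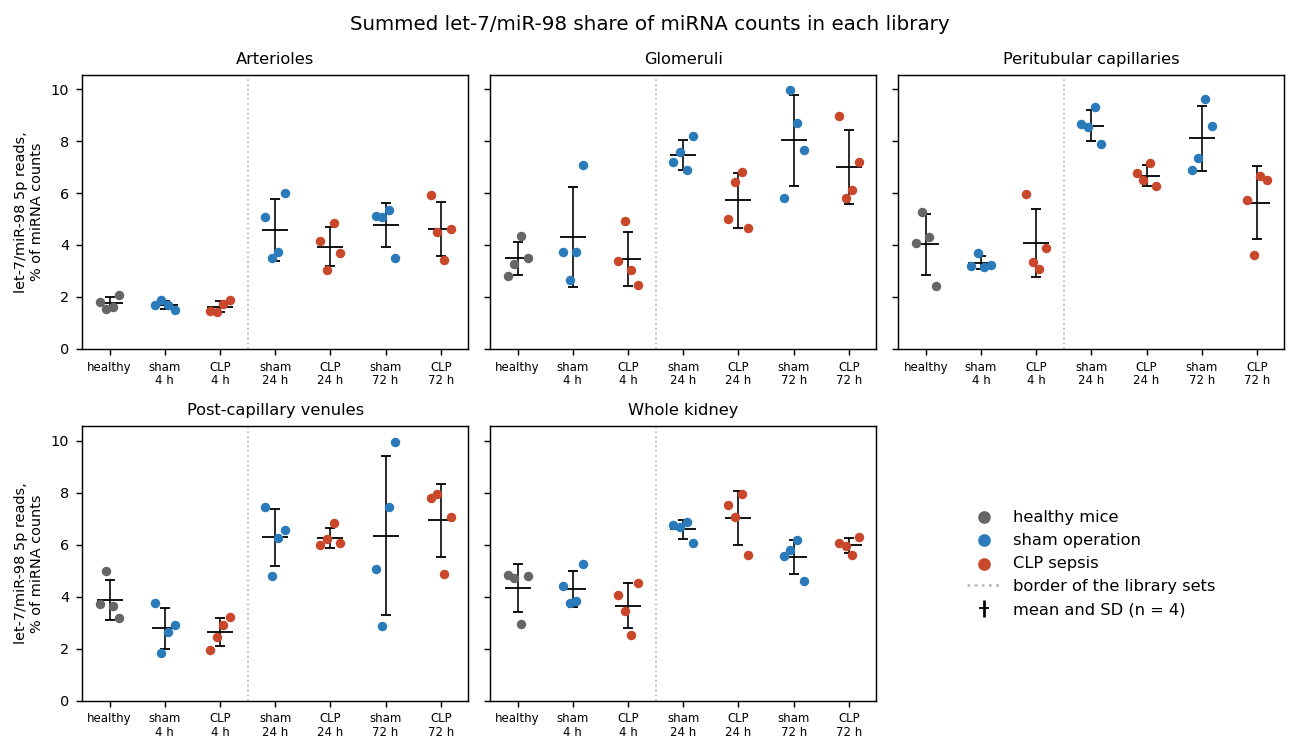
Summed counts of the 9 members as a percentage of all miRNA counts (vertical axis) in each of the 7 groups, one panel per compartment, with a point per mouse and the mean and SD of 4 mice; the dotted line separates the library sets. In peritubular capillaries at 24 h the 4 CLP libraries, at 6.28% to 7.17%, lie below the 4 sham libraries, at 7.88% to 9.33%.

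The makeup of the family also differed between the sets. In arterioles let-7f gave 41.5% ± 7.84 (SD, n = 12) of the family's counts in the healthy and 4 h set and 22.4% ± 2.84 (n = 16) in the 24 h and 72 h set, while let-7i gave 35.6% ± 6.52 and 50.0% ± 3.84. In whole kidney let-7f gave 40.6% ± 4.54 and 30.9% ± 3.86, let-7c 12.5% ± 1.82 and 19.9% ± 2.85, and let-7i 28.8% ± 3.46 and 27.0% ± 2.12. let-7f was thus the leading member of the first set in all 5 compartments by mean share, and in the second set let-7i led in arterioles, glomeruli and venules. Here too time and set cannot be told apart.

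**Figure D2:**
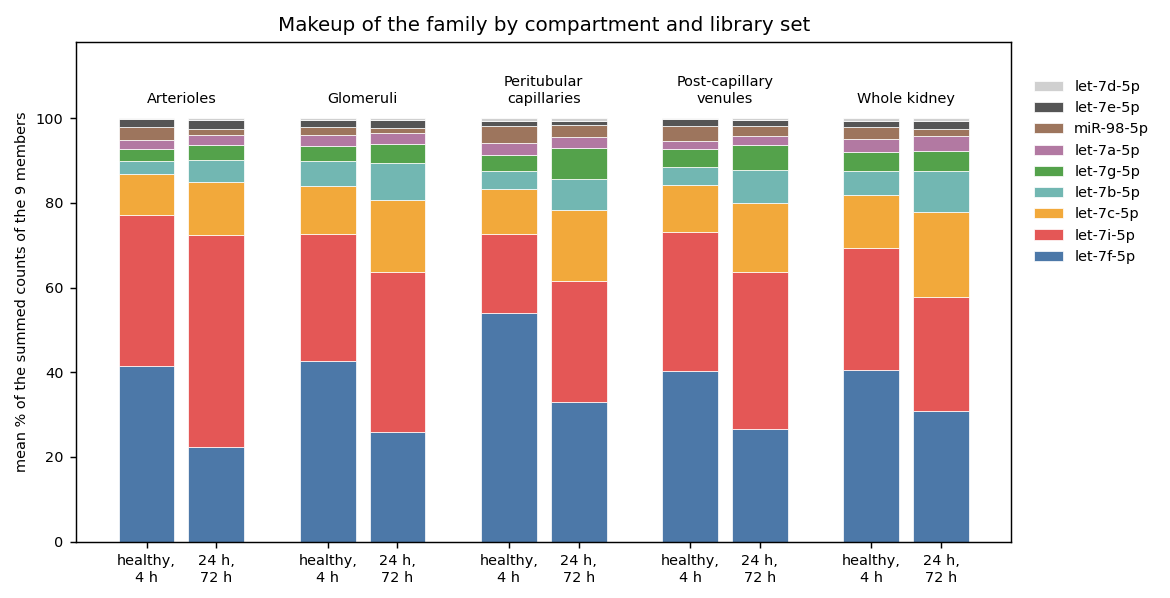
Mean share of each member in the summed counts of the 9 members (vertical axis, percent), with 2 bars per compartment: the healthy and 4 h libraries (n = 12) and the 24 h and 72 h libraries (n = 16). In arterioles let-7f takes 41.5% of the first bar and 22.4% of the second, and let-7i 35.6% and 50.0%.

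The next comparison asked whether the members are spread evenly over the microvessels of one kidney. let-7i was not: relative to the other members it was poor in peritubular capillaries in both sets of mice, and rich in arterioles in the late sham mice. Among healthy mice its share in arterioles was higher than in glomeruli in 2 of 4 mice and higher than in venules in 2 of 4. In the 4 healthy mice let-7i made up 38.9%, 39.9%, 28.6% and 30.9% of the family's counts in arterioles. In glomeruli of the same mice it made up 30.3%, 29.3%, 34.6% and 31.8%. In peritubular capillaries it made up 22.4%, 16.0%, 11.8% and 8.82%, and all 4 lay below every library of arterioles, glomeruli and venules. Venules stood at 24.9%, 27.2%, 29.5% and 35.5%. The lowest peritubular value rests on 9 let-7i counts among 102 family counts (95% Clopper-Pearson interval 4.11% to 16.1%, counting error only), and the highest on 128 among 571 (19.1% to 26.1%).

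By share, let-7f ran the other way in the healthy mice. It made up 59.2%, 59.2%, 60.2% and 53.9% of the family's counts in peritubular capillaries, against 31.9% to 55.8% in arterioles, 36.6% to 48.3% in glomeruli and 24.3% to 46.7% in venules. The share of let-7f was higher in peritubular capillaries than in arterioles, glomeruli and venules of the same mouse in 4 of 4 mice. For let-7i the share was lower there in 4 of 4 mice in each of these pairs. The share of let-7g was also lower there in 4 of 4 mice in each pair, and that of miR-98 higher in 4 of 4. Such shares are ratios within a library, and the scaling of libraries does not enter them. The members' shares add up to the whole, so a lower share of let-7i raises those of the others. By level edgeR with TMM called let-7f in no pair of healthy compartments. DESeq2 and plain library totals called it higher in capillaries than in arterioles.

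The low share of let-7i in capillaries was also seen in the 8 sham mice at 24 h and 72 h, which are other animals and belong to the other library set. Its share of the family's counts was 48.2% ± 3.19 (SD, n = 8) in arterioles, 36.6% ± 1.74 in glomeruli, 36.2% ± 5.63 in venules and 29.1% ± 4.10 in peritubular capillaries. The arteriole libraries, at 42.9% to 53.1%, lay above all glomerular libraries, at 33.7% to 39.1%, and above all peritubular capillary libraries, at 24.7% to 34.6%. let-7i was lower in peritubular capillaries than in arterioles in 8 of 8 mice and lower than in glomeruli in 8 of 8 mice. It was lower in capillaries than in venules in 6 of 8 mice and higher in 2, and the level test of that pair did not pass (edgeR adjusted p = 0.223). Glomeruli and venules did not differ beyond their spread, since venules ran from 29.5% to 48.0%. In the whole kidney of these mice let-7i stood at 26.2% ± 2.17. The low capillary share of let-7g in healthy mice did not recur. Its share in capillaries was higher than in arterioles in 8 of 8 mice, glomeruli in 7 of 8 and venules in 6 of 8. For miR-98 the share in capillaries was again higher, in 8, 8 and 6 of 8 mice.

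**Figure D3:**
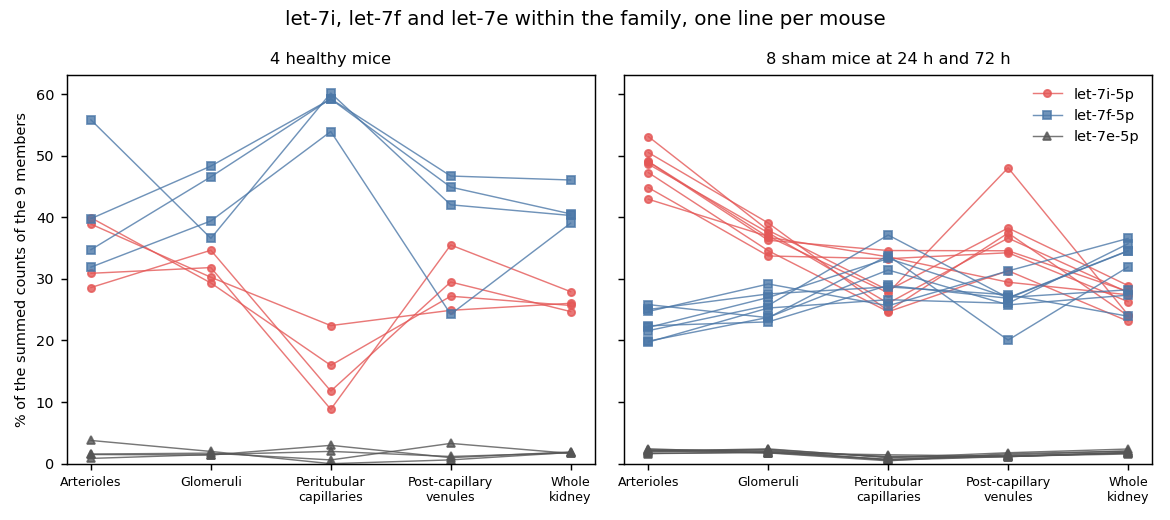
Shares of let-7i, let-7f and let-7e in the summed counts of the 9 members (vertical axis, percent) in the 5 compartments, with one line per mouse for the 4 healthy mice (left) and the 8 sham mice at 24 h and 72 h (right). In both panels the let-7i lines drop from arterioles to peritubular capillaries, from 34.6% to 14.7% and from 48.2% to 29.1% on average.

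On the level of CPM (counts scaled to a common library size by TMM over the microdissected libraries) the tests gave the same direction for let-7i. In healthy mice its level in peritubular capillaries was 6427, 5658, 3638 and 1444 CPM. It was 13167, 11307, 7669 and 8034 CPM in arterioles and 9275, 9761, 14744 and 10459 CPM in glomeruli, and neither range overlapped with that of the capillaries. Against arterioles let-7i was lower in peritubular capillaries, with a log2 difference of -1.24 (SE 0.302; adjusted p from edgeR 0.000968). Against glomeruli the log2 difference was -1.43 (SE 0.306; adjusted p from edgeR 0.000137). It was higher in venules than in peritubular capillaries by 0.99 on the log2 scale (SE 0.303, edgeR adjusted p = 0.0211). That last call was lost when any one of the healthy mice 2, 3 and 4 was left out, with adjusted p-values up to 0.258.

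These were the only 3 calls among the 54 tests of members over the 6 pairs of healthy compartments, each test with the mouse as a block. DESeq2 called 7, the other 4 all higher in capillaries: let-7a at 1.22, let-7f at 0.68 and miR-98 at 1.19 against arterioles, and miR-98 at 1.46 against glomeruli. With plain library totals 17 passed, and the calls gained were all higher than in arterioles, apart from miR-98, which was higher in capillaries than in glomeruli (1.73, edgeR adjusted p = 0.00733). Both comparisons of peritubular capillaries with arterioles and glomeruli called 18.5% and 22.7% of all 383 miRNAs tested, and 1 of 9 members in each is not above those shares. Venules against peritubular capillaries called 10.4% of all miRNAs and 1 of 9 members. Glomeruli against arterioles, venules against arterioles and venules against glomeruli called 10.2%, 13.6% and 13.3% of all miRNAs and 0 of 9 members each by edgeR, with 0 members at an unadjusted p under 0.05 and 0 calls by DESeq2.

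Differences in level between compartments depend on the scaling. With plain library totals the median of all 383 miRNAs for peritubular capillaries against arterioles moved by 0.52 on the log2 scale in healthy mice and by 1.28 in late sham mice, and let-7i stood at 0.03 and 0.10, so that its lower level against arterioles disappeared. It still lay below the median of all miRNAs, which was 0.34 and 0.93 with plain totals and -0.18 and -0.35 with TMM. Against glomeruli in healthy mice let-7i remained lower with plain totals, by -0.86 (edgeR adjusted p = 0.0234).

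In the 8 late sham mice 10 of 54 tests of members passed, all of them lower in capillaries or venules than in arterioles or glomeruli. DESeq2 called 11, with 2 of the other sign: let-7g was higher in capillaries than in arterioles by 0.75 and miR-98 higher than in glomeruli by 0.68. It also called let-7e lower in venules than in glomeruli by -0.98 (DESeq2 adjusted p = 0.0234). Capillaries against glomeruli had 3 DESeq2 calls, with miR-98 among them, and 4 by edgeR, so not all edgeR calls of that pair held. The level of let-7i was 15425 CPM ± 2236 (SD, n = 8) in peritubular capillaries, 39195 CPM ± 10146 in arterioles, 28428 CPM ± 4290 in glomeruli and 20125 CPM ± 4963 in venules. Capillaries ran from 12194 to 19836 CPM with a median of 15354 and overlapped neither with arterioles, from 23955 to 55765 CPM with a median of 36767, nor with glomeruli, from 22238 to 35656 CPM with a median of 28171. let-7i was lower in capillaries than in arterioles by -1.35 (SE 0.208, edgeR adjusted p = 8.21e-08), lower in capillaries than in glomeruli by -0.89 (SE 0.205, edgeR adjusted p = 0.000317) and lower in venules than in arterioles by -0.97 (SE 0.207, edgeR adjusted p = 0.000109). With plain library totals the last 2 values were -0.23 and -0.02 and did not pass.

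let-7e, which is made next to miR-99b and miR-125a, was the second member with a marked step. Its level in late sham mice was 1613 CPM ± 250 in arterioles, 1579 CPM ± 337 in glomeruli, 759 CPM ± 251 in venules and 478 CPM ± 217 in peritubular capillaries (SD, n = 8 each). The capillary libraries, from 259 to 851 CPM with a median of 423, lay below every arteriole library, from 1062 to 1923 CPM, and every glomerular library, from 1054 to 2174 CPM. In these capillary libraries let-7e made up 0.462% to 1.44% of 1876 to 4236 family counts, so each value rests on few reads. The log2 fold change of capillaries was -1.83 against arterioles (SE 0.441, edgeR adjusted p = 0.000556) and -1.79 against glomeruli (SE 0.439, edgeR adjusted p = 0.000682). Against glomeruli it also passed with plain library totals, at -1.13 (edgeR adjusted p = 0.0438), and against arterioles it did not, at -0.39. Venules were lower than arterioles by -1.14 (SE 0.426, edgeR adjusted p = 0.0390), a call that was lost with plain totals (-0.17) and without any one of 7 of the 8 mice. In healthy mice let-7e had 0 counts in 1 peritubular library and did not pass in any pair.

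The other late sham calls concerned let-7a and let-7c against glomeruli. let-7a was lower by -0.86 in peritubular capillaries (SE 0.326, edgeR adjusted p = 0.0286) and by -0.94 in venules (SE 0.326, edgeR adjusted p = 0.0267), at 1255 CPM ± 455 and 1168 CPM ± 389 against 2216 CPM ± 564. let-7c was lower by -0.58 in capillaries (SE 0.217, edgeR adjusted p = 0.0270) and by -0.61 in venules (SE 0.216, edgeR adjusted p = 0.0288), at 9274 CPM ± 2126 and 9201 CPM ± 2521 against 13810 CPM ± 2379. In each of these pairs the libraries overlapped. Each of the calls of let-7a and let-7c was lost without any one of 4 or 5 of the 8 mice, and none of the 4 passed with plain totals, where let-7c in capillaries stood at 0.07. Capillaries against arterioles and against glomeruli called 35% and 43.3% of all 383 miRNAs, against 2 and 4 of 9 members. Venules against arterioles and against glomeruli called 26.9% and 23.2%, against 2 and 2 of 9 members. Glomeruli against arterioles called 19.1% of all miRNAs and venules against capillaries 13.1%, with 0 members each by edgeR and DESeq2 and 1 and 0 members at an unadjusted p under 0.05. The members' counts are thus near or below the shares of all miRNAs. With plain totals 19 tests of members passed in late sham mice, 15 of them higher than in arterioles, as with let-7f in capillaries at 1.29 (edgeR adjusted p = 4.22e-08).

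Tubular and epithelial marker miRNAs were higher in peritubular capillaries, in which let-7i was low, than in arterioles and glomeruli. The 3 tubular markers (miR-192, miR-194 and miR-215) summed to 0.627% to 0.854% of miRNA counts in healthy peritubular capillaries, to 0.00619% to 0.129% in arterioles, with miR-194-5p at 0 in all 4 libraries, and to 0.0905% to 0.104% in glomeruli. The 5 epithelial markers (miR-200a, miR-200b, miR-200c, miR-141 and miR-429) summed to 1.19% to 1.51%, 0.0368% to 0.0673% and 0.0941% to 0.327%. Both sums were also higher in healthy venules, where edgeR called no member against arterioles or glomeruli. Tubular markers summed to 2346 to 3087 CPM in venules, 849 to 1130 in glomeruli and 114 to 1633 in arterioles. Epithelial markers summed to 5165 to 7847, 1025 to 3206 and 604 to 915 CPM in that order. In late sham mice the tubular markers summed to 0.753% to 1.055% in capillaries, 0.145% to 0.793% in venules, 0.00376% to 0.0467% in arterioles and 0.0577% to 0.183% in glomeruli. The epithelial markers summed to 1.98% to 3.28%, 0.805% to 2.84%, 0.0213% to 0.190% and 0.214% to 0.902% in the same order, and venules and glomeruli overlapped in both sums. In late sham mice the smooth muscle pair averaged 854708 CPM in arterioles, 89251 in glomeruli, 48302 in venules and 22288.5 in capillaries. The endothelial pair averaged 60050.5, 57130, 22144 and 15684 CPM in that order. Both pairs were lower in the vessels poor in let-7i and let-7e, and their means had the same order in healthy mice. The part of any of these markers in the differences of let-7 members was not tested.

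Whole kidney was set against the mean of the 4 microdissected compartments of the same mice. In healthy mice let-7d was higher in whole kidney by 2.07 (SE 0.736, edgeR adjusted p = 0.0241) and let-7c by 0.71 (SE 0.253, edgeR adjusted p = 0.0241), which is 2 of 9 members where 44.2% of 242 miRNAs passed. let-7d stood at 54.1, 0, 0 and 0 CPM in healthy capillaries and at 32.6, 14.5, 0 and 289 CPM in arterioles. In whole kidney it stood at 230, 239, 224 and 228 CPM. Its difference thus rests in part on libraries at or near 0 counts. In late sham mice let-7a was higher by 0.46 (SE 0.149, edgeR adjusted p = 0.00864), let-7b by 0.32 (SE 0.133, edgeR adjusted p = 0.0397) and let-7c by 0.27 (SE 0.113, edgeR adjusted p = 0.0367). let-7i was lower by -0.52 (SE 0.098, edgeR adjusted p = 2.52e-05). The late calls were 4 of 9 members where 58.2% of 316 miRNAs passed. The call of let-7i held without any single mouse, at -0.76 to -0.46, and the 5 other calls were each lost without at least 3 of the mice and under DESeq2, where let-7b and let-7c stood at -0.08 and -0.13. DESeq2 called let-7g (-0.54) and miR-98 (-0.50) lower in whole kidney of late sham mice beside let-7i. Tissue and way of collection cannot be told apart in this comparison.

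The central question of the study was how miRNAs of the renal microvessels respond to sepsis. For the let-7 family no response passed the test. Over the 15 comparisons of CLP with sham (5 compartments at 4 h, 24 h and 72 h), 0 of 135 tests of members passed by edgeR, 10 had an unadjusted p under 0.05, and DESeq2 also called 0, with 8 at an unadjusted p under 0.05. The smallest adjusted p was 0.129. All miRNAs together gave 27 calls in 4932 tests. The percentages called at 4 h, 24 h and 72 h were 0.36%, 0% and 0% in arterioles, 0.592%, 0% and 0.592% in glomeruli, 0%, 0.498% and 0.995% in peritubular capillaries, 0%, 0% and 1.4% in venules, and 0.185%, 0.738% and 1.85% in whole kidney.

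**Figure D4:**
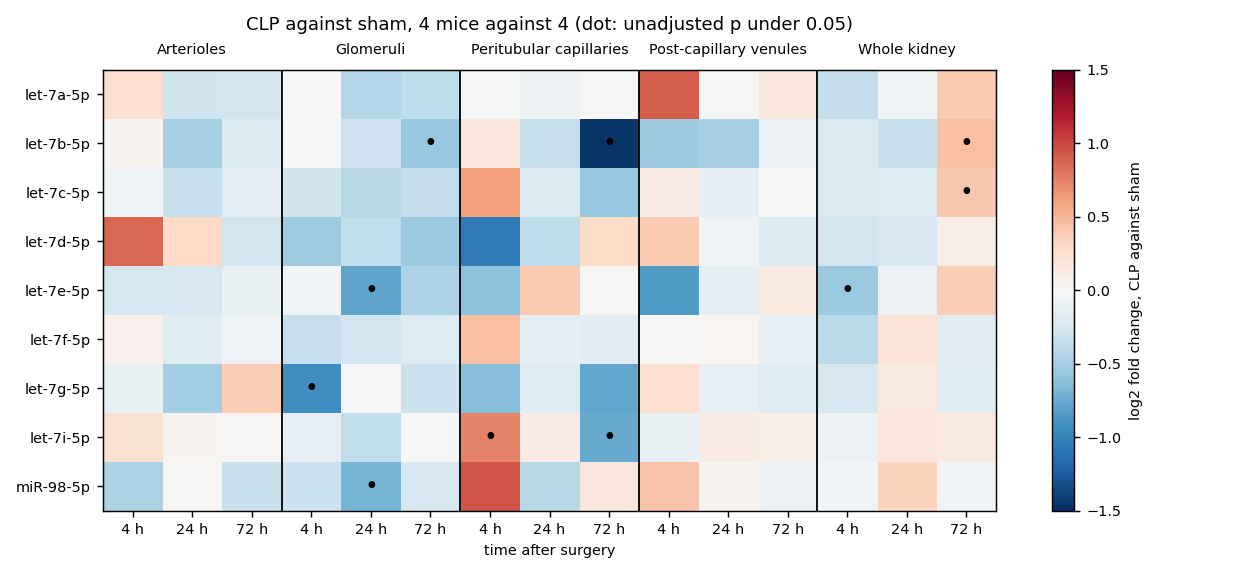
Log2 fold change of CLP against sham (colour) for each member (rows) at 4 h, 24 h and 72 h in the 5 compartments (columns), 4 mice against 4; a dot marks an unadjusted p under 0.05, and no cell passed an adjusted p of 0.05. In glomeruli 26 of the 27 cells are below 0, as are all 9 cells of whole kidney at 4 h, and the lowest value of the panel is let-7b in peritubular capillaries at 72 h, at -1.46.

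In glomeruli nearly all members had lower values after CLP. All 9 had a negative fold change at 4 h and at 24 h and 8 of 9 at 72 h. Their medians were -0.30, -0.37 and -0.35, beside medians over all 338 miRNAs of 0.06, -0.02 and -0.01. The members come from the same libraries, so these signs are not independent. let-7g at 4 h came nearest to the threshold: it stood at 1263, 1810, 847 and 446 CPM after CLP and at 1472, 1952, 1732 and 3273 CPM after sham (log2 fold change -0.94, SE 0.305, edgeR adjusted p = 0.129). The groups overlapped, and let-7g passed only with no filter on low counts (-0.98, edgeR adjusted p = 0.0201) or without CLP 4 h replicate 2 (-1.31, edgeR adjusted p = 0.0171). Against healthy mice the glomerular members were higher in these sham mice, with 0 of 9 fold changes negative and a median of 0.41. None passed there (smallest edgeR adjusted p = 0.434). The family's share at 4 h was 4.30% ± 1.93 after sham and 3.45% ± 1.04 after CLP. In healthy glomeruli it was 3.48% ± 0.641 (SD, n = 4 each). let-7e at 24 h stood at 801, 1060, 649 and 858 CPM after CLP and at 1569, 1641, 1203 and 1439 CPM after sham, with no overlap (-0.79, SE 0.318, edgeR adjusted p = 0.305). let-7b at 72 h stood at 6062, 3437, 3921 and 5154 CPM after CLP, below each sham library, at 6154, 7493, 7727 and 6113 CPM (-0.57, SE 0.270, edgeR adjusted p = 0.993). Levels did not overlap in 7 of the 135 member tests of CLP against sham, 2 of them in glomeruli at 24 h. How often levels separate in this way over all miRNAs was not counted, so no result is read from it.

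The family's summed share of miRNA counts in glomeruli at 24 h was 4.99%, 6.41%, 6.82% and 4.66% after CLP and 7.21%, 7.57%, 6.87% and 8.19% after sham. These groups did not overlap. At 4 h and 72 h they did. The 5 epithelial markers summed to 0.190% to 0.581% of counts after CLP and 0.548% to 0.902% after sham in the same glomerular libraries, and the smooth muscle pair to 9.39% to 11.8% and 7.83% to 9.40%. Their part in the lower share was not tested. Shares of the whole family are given as a description with no test.

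Peritubular capillaries gave the largest single values at the lowest depth. At 24 h the family's share was 6.76%, 6.48%, 7.17% and 6.28% after CLP and 8.65%, 8.53%, 9.33% and 7.88% after sham, and at 72 h it was 5.72%, 3.63%, 6.66% and 6.51% against 6.89%, 7.33%, 9.63% and 8.57%. At both times every CLP library lay below every sham library. At 4 h the groups overlapped. let-7b at 72 h stood at 251, 1161, 5020 and 3562 CPM after CLP and at 7271, 6195, 7026 and 7016 CPM after sham (-1.46, SE 0.663, edgeR adjusted p = 0.456), so the CLP values were spread over a wide range below an even sham group. let-7i in these libraries stood at -0.76 (SE 0.348, edgeR adjusted p = 0.456). At 4 h the smallest p was that of let-7i, with the opposite sign (0.74, SE 0.360, edgeR adjusted p = 0.603), and at 24 h that of let-7c (edgeR adjusted p = 0.989). Erythroid markers (miR-451a, miR-144 and miR-486a) summed to 1.02% to 18.5% of counts in CLP capillaries at 24 h against 1.02% to 2.25% in sham, and the epithelial markers to 1.58% to 2.38% against 2.26% to 3.28%. At 72 h the erythroid markers had a median sum of 2.26% and a highest of 5.95% after CLP against 1.43% and 2.89% in sham, the epithelial markers summed to 1.78% to 2.68% against 1.98% to 2.56%, and the smooth muscle pair to 3.51% to 5.06% against 2.39% to 3.95%. Their part in the lower shares was not tested.

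In whole kidney at 4 h all 9 members also had a negative fold change, from -0.56 to -0.041 with a median of -0.24, beside a median over all 542 miRNAs of -0.0044. In arterioles and venules at all times, and in whole kidney at 24 h and 72 h, the members' fold changes lay on both sides of 0. The member with the smallest p was miR-98 at 4 h (edgeR adjusted p = 0.742) and let-7g at 24 h and 72 h (edgeR adjusted p = 1 for both) in arterioles. In venules it was let-7a at 4 h (0.90, edgeR adjusted p = 0.857), let-7b at 24 h (-0.50, edgeR adjusted p = 0.983) and let-7g at 72 h (edgeR adjusted p = 1.00). In whole kidney it was let-7e at 4 h (-0.56, edgeR adjusted p = 0.920), let-7b at 24 h (-0.33, edgeR adjusted p = 0.563) and let-7b at 72 h (0.45, SE 0.170, edgeR adjusted p = 0.227). Standard errors of the members ran from 0.140 in whole kidney to 1.51 in peritubular capillaries, so changes may have gone undetected at this depth and number of mice. The smallest detectable change was not computed.

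Further tests asked whether the response to CLP differed between vessels or times. Whether CLP minus sham differed among the 4 microdissected compartments gave 0 calls of members at 4 h, 24 h and 72 h by edgeR, with 0 at an unadjusted p under 0.05, and 0 calls by DESeq2, with 2 at an unadjusted p under 0.05. All miRNAs gave 0.261%, 0% and 0% of 383. Whether CLP minus sham differed between 72 h and 24 h gave 0 of 45 calls by edgeR and by DESeq2, and each had 2 at an unadjusted p under 0.05, while all miRNAs gave 0% in each compartment. The 2 were let-7b (0.78, SE 0.240, edgeR adjusted p = 0.418) and let-7c (0.60, SE 0.225, edgeR adjusted p = 0.439) in whole kidney.

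The members that did change with time were let-7b and let-7c in whole kidney of sham mice, without sepsis. let-7b stood at 7850, 7123, 9145 and 8240 CPM at 24 h and at 4172, 4079, 4942 and 3409 CPM at 72 h. The groups did not overlap, and let-7b fell by 0.96 on the log2 scale (SE 0.171, edgeR adjusted p = 0.00177). let-7c stood at 16114, 13562, 16449 and 15384 CPM at 24 h and at 8711, 9272, 10049 and 7369 CPM at 72 h. It fell by 0.80 on the log2 scale, again with no overlap (SE 0.160, edgeR adjusted p = 0.00489). These were 2 of the 6 calls among 542 miRNAs, or 2 of 9 members where 1.11% of all miRNAs passed. let-7b lost its call without sham 72 h replicate 4 (-0.81, edgeR adjusted p = 0.0542), and let-7c without that mouse (-0.64, edgeR adjusted p = 0.170) or without sham 24 h replicate 3 (-0.68, edgeR adjusted p = 0.0994).

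Not every member fell. let-7a, let-7d and let-7e had fold changes of -0.69, -0.64 and -0.61 with no overlap between the groups and did not pass (edgeR adjusted p from 0.0870 for let-7d to 0.219 for let-7e). Here and above, overlap of levels was examined for members only, and its frequency over all miRNAs was not counted. let-7a passed with no filter on low counts (edgeR adjusted p = 0.00969), and let-7a and let-7e passed with the spread of the compared groups alone (edgeR adjusted p = 0.0103 and 0.0417). let-7f stood at 18649 CPM ± 2938 at 24 h and 18830 CPM ± 1867 at 72 h, and let-7i at 16263 CPM ± 991 and 14973 CPM ± 1912, both with overlap. As a share of the family let-7b went from 12.1% ± 1.11 to 7.76% ± 0.392 and let-7c from 23.1% ± 2.15 to 16.6% ± 0.381 (SD, n = 4 each), while let-7f went from 27.9% ± 3.28 to 35.3% ± 0.983 and let-7i from 24.4% ± 1.35 to 28.0% ± 0.632. For each of these 4 members the libraries at 24 h and 72 h did not overlap in share. The members' shares add up to the whole, so a fall of let-7b and let-7c raises those of let-7f and let-7i. let-7b and let-7c, which differ by 1 base and have neighbouring genes, could share reads. The tubular markers summed to 0.721% to 0.953% of counts at 24 h and 0.855% to 1.19% at 72 h, and the epithelial markers to 3.45% to 4.00% and 2.74% to 3.47%. Their part in the fall was not tested.

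**Figure D5:**
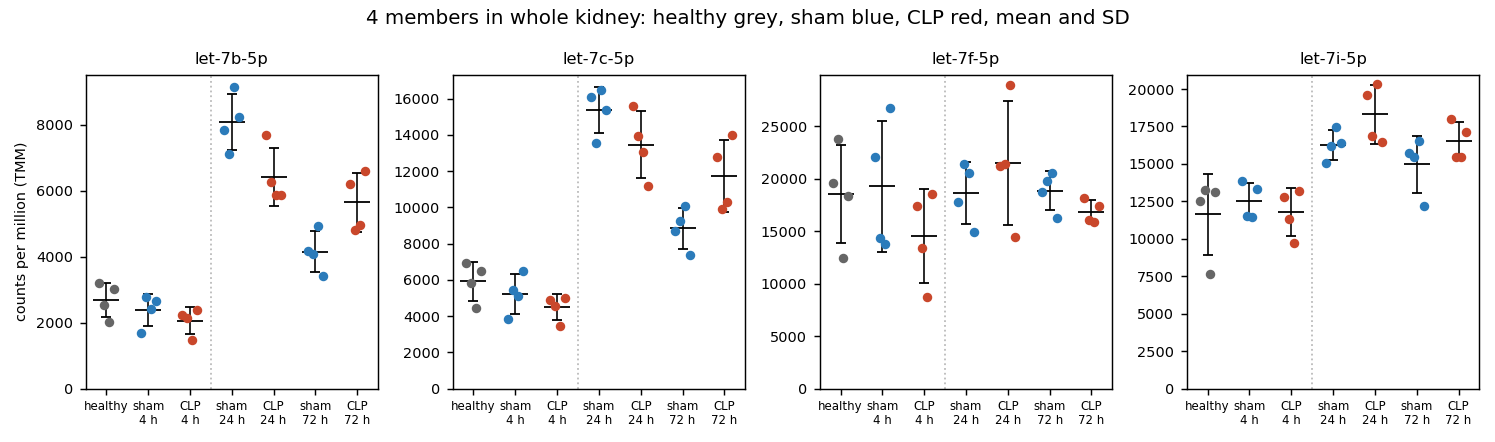
Levels of let-7b, let-7c, let-7f and let-7i in whole kidney (vertical axis, TMM-scaled CPM) in the 7 groups, with a point per mouse and the mean and SD of 4 mice; the dotted line separates the library sets. let-7b and let-7c are lower in sham mice at 72 h than at 24 h (4150 against 8090 CPM and 8850 against 15377 CPM on average), and let-7f is not (18830 against 18649 CPM).

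The same sham mice are the reference for CLP. At 72 h let-7b stood at 6218, 4825, 4963 and 6614 CPM after CLP in whole kidney, and let-7c at 12773, 9917, 10266 and 14002 CPM. Against sham at 72 h let-7b stood at 0.45 (SE 0.170, edgeR adjusted p = 0.227) and let-7c at 0.41 (SE 0.160, edgeR adjusted p = 0.236), both with overlap. At 24 h let-7b stood at 7698, 6257, 5861 and 5860 CPM after CLP, with a fold change of -0.33. The comparisons share their sham mice and are not independent of the fall in sham.

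In the other 9 comparisons of sham mice, with healthy mice at 4 h or between 72 h and 24 h, 0 members passed by edgeR. Venules came nearest: all 9 members had a negative fold change in sham mice at 4 h against healthy mice, and let-7c stood at 2369 CPM ± 616 against 4964 CPM ± 1544 (-1.07, SE 0.268, edgeR adjusted p = 0.123). edgeR called 0% of 285 miRNAs there, and DESeq2 called let-7c (adjusted p = 0.0248). let-7c also passed in edgeR without healthy replicate 3 (-1.32, edgeR adjusted p = 0.00644), and let-7c and let-7a passed without sham 4 h replicate 1, at -1.27 and -2.37 (edgeR adjusted p = 0.0144 for both). The percentages of all miRNAs called at 4 h against healthy were 1.44% in arterioles, 0% in glomeruli, 0% in peritubular capillaries and 0.185% in whole kidney. At 72 h against 24 h they were 0% in arterioles, glomeruli and peritubular capillaries and 0.702% in venules. Over these 9 comparisons 7 tests of members had an unadjusted p under 0.05.

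let-7j, a miRNA outside the 9 members, is shown for its closeness to let-7i.
mmu-let-7j: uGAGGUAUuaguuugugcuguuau
It differs from let-7i by G8U, a change in the last base of the seed, and by 2 more bases at the 3′ end. It had 366739 counts. In the 89 libraries of at least 100000 miRNA counts there were 15.4 ± 2.52 (SD) let-7j counts per 100 let-7i counts, from 6.00 to 19.7. Over these libraries the logarithms of let-7j and let-7i levels had a Pearson correlation of 0.94, beside 0.84 for let-7c and 0.51 for let-7f, all computed from shared libraries and given as a description. let-7j was lower in peritubular capillaries than in arterioles of late sham mice by -1.01 (SE 0.299, edgeR adjusted p = 0.00524), where let-7i was at -1.35. let-7k and miR-1961, the other miRNAs of the table with the seed GAGGUAG, were nearly absent, and let-7k had 0 counts in 106 libraries.

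The passenger strands, cut from the other arm of the hairpin, were far rarer. There were 0.0409 let-7i-3p counts per 100 let-7i-5p counts over all libraries, 0.0926 for let-7g, 0.119 for miR-98 and 0.426 for let-7b. For let-7d there were 33.1 let-7d-3p counts per 100 of its 5p strand over all libraries, and 12.7 to 34.8 in single whole kidney libraries. The rows of let-7a-1-3p and let-7c-2-3p, whose mature sequences are identical, were equal in 135 of 140 libraries and differed by at most 3 counts in the other 5, so their counts, 10.5 per 100 of let-7a-5p over all libraries and 6.65 to 50.5 in single whole kidney libraries, cannot be assigned to one gene.

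The miRNAs made beside let-7 genes gave large values between vessels, given here beside those of their let-7 neighbours. miR-100-5p, next to let-7a-2, was lower in peritubular capillaries than in arterioles by -4.71 in healthy mice (SE 0.552, edgeR adjusted p = 4.17e-11), where let-7a was at 1.02 and did not pass by edgeR with TMM but did by DESeq2 and with plain totals (2.26, edgeR adjusted p = 0.000451). miR-125b-5p, whose genes lie farther along the clusters of let-7a-2 and let-7c-1, and miR-99a-5p, next to let-7c-1, were lower by -1.79 (SE 0.303, edgeR adjusted p = 1.31e-06) and -1.55 (SE 0.196, edgeR adjusted p = 4.81e-10). miR-125a-5p and miR-99b-5p, next to let-7e, were lower in late sham capillaries than in glomeruli by -1.66 (SE 0.164, edgeR adjusted p = 2.51e-14) and -1.98 (SE 0.288, edgeR adjusted p = 2.39e-08), where let-7e was at -1.79. Over the 6 pairs 21 of 30 tests of these 5 neighbours passed in healthy mice and 23 of 30 in late sham mice, where the pairs called 10.2% to 22.7% and 13.1% to 43.3% of all miRNAs. Of these calls 8 and 9 were higher and 13 and 14 lower in the first-named vessel of a pair, taking glomeruli, capillaries and venules against arterioles, capillaries and venules against glomeruli, and venules against capillaries.

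Among members, let-7b and let-7c had the most similar levels over the 35 groups, with a Pearson correlation of group means of 0.96 (0.92 over the 20 groups of the 24 h and 72 h set). Outside the family, the miRNAs whose group means most resembled the family's sum were miR-196b-5p (0.84), miR-196a-5p (0.77) and miR-361-5p (0.76), among 211 candidates over the 35 groups. Within the 20 groups of the later set these fell to 0.24, 0.22 and 0.06. The groups share mice and library sets, and the values are a description.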

How the data were processed

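The labels' protocols name a RealSeq kit for the small RNA libraries. Bowtie 1.3.0, cutadapt 3.3, MultiQC 1.10 and FastQC 0.11.9 and the builds GRCm38.p6 and GRCm39 are named in the submitters' processing notes. Which build served which step, and whether a read that fits several miRNAs was counted once, is not stated in these sources. The authors deposited the raw count of reads for each mature miRNA in each library, not normalized. The 10 entries that start with # and name no miRNA were left out of totals and tests. They took 0.907% to 14.0% of all counts in whole kidney, 46.5% to 98.3% in glomeruli and 91.3% to 99.7% in peritubular capillaries.

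Counts were tested with edgeR 4.0.16 (quasi-likelihood F test, R 4.3.3) after TMM scaling and a filter (filterByExpr, minimum count 10, minimum total 15); the fits were also tested on simulated data. Each compartment had its own fit of 28 libraries. The microdissected compartments were compared in 1 fit of 112 libraries, and whole kidney with them in fits of 20 healthy and 40 late sham libraries, all with the mouse as a block. "Late sham" means the 8 sham mice at 24 h and 72 h. p-values were adjusted by Benjamini-Hochberg over all miRNAs tested in a comparison, and a call is an adjusted p under 0.05. CPM is scaled by TMM, and shares are plain ratios of counts. Intervals cover counting error only. Alternatives were DESeq2 1.42.0, RLE factors, plain library totals, scaling without the members, no filter, no libraries under 100000 counts, other blocks, the spread of the compared groups alone, and leaving out each mouse.

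The members and marker lists were chosen with earlier results of these data known. Members past the threshold got full statistics, and elsewhere the member with the smallest p. Further miRNAs named are the passenger strands, let-7j, others with the seed, the genomic neighbours and the 5 miRNAs most like the family's summed level.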

Additional observations from a re-analysis of the deposited data

Results flagged for a closer look

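The family's summed share of miRNA counts was examined for a library far from the other 3 in each of the 35 groups of 4, and 3 groups had one. Chance gives about 1 in 20 groups. In arterioles of sham mice at 72 h the lowest library stood at 3.49%, with the others at 5.07% to 5.34%. In peritubular capillaries of sham mice at 4 h the highest library stood at 3.69%, with the others at 3.16% to 3.22%. In whole kidney of healthy mice the lowest library stood at 2.97%, with the others at 4.72% to 4.82%.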

How the results depend on the processing

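The tests of CLP against sham gave 0 calls of members under DESeq2, RLE factors, plain library totals, scaling without the members, the replicate block and the spread of the compared groups alone. They gave 1 with no filter on low counts, and 0 to 1 when single mice were left out. The tests of whether CLP minus sham differed between compartments, or between 72 h and 24 h, gave 0 calls under every alternative that could be fitted. For the 3 calls in healthy compartment pairs, DESeq2 gave 7, plain totals 17 and leaving out single mice 2 to 3. For the 10 calls in late sham pairs, plain totals gave 19, leaving out mice 5 to 13, and leaving out libraries under 100000 counts gave 8 in the 3 comparisons that could still be fitted, where the full data gave 4. For the 6 calls of whole kidney against microdissected vessels, DESeq2 and RLE factors gave 3 each, of which only let-7i was among the 6, and leaving out mice 3 to 8. For the 2 calls between sham groups, the spread of those groups alone gave 4 and leaving out mice 0 to 4. The causes of these shifts were not tested.

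With plain totals the log2 differences of let-7i in capillaries against arterioles turned to 0.0275 in healthy and 0.10 in late sham mice, and that of let-7c in late sham capillaries against glomeruli to 0.0691. In late sham whole kidney let-7b turned to -0.0834 under DESeq2 and -0.0831 under RLE factors and let-7c to -0.132 and -0.133, and they ranged over -0.0362 to 0.41 and -0.0157 to 0.36 when single mice were left out. The cause was not tested.

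The replicate numbers did not pair the mice across groups: the correlations of same-numbered libraries ran from -0.28 to 0.28, with 0 of 15 comparisons in which every pair was over 0.1. With the replicate block CLP against sham gave 0 calls and the sham comparisons 2. Without the mouse block the healthy pairs gave 3, the late sham pairs 11 and whole kidney 7. Each mouse was left out only of the comparisons its group enters. Without libraries under 100000 counts no comparison that involves peritubular capillaries could be fitted. Nor could the tests of whether CLP minus sham differed between compartments, or those of whole kidney against vessels. The peritubular libraries are also the libraries where depth limits the precision most.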
